A study of Mus musculus with 12 samples.

Results

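The genes described here are 7 transcripts that regulatory T cells are known for: Foxp3, Il2ra, Ikzf2, Tnfrsf18, Tnfrsf4, Il10 and Lrrc32. They were chosen by gene symbol, and all 7 were present among the 47643 genes of the deposited tables. They were measured by bulk poly(A) RNA sequencing in pieces of pancreatic tumor that carried KPC4662, a mouse line of pancreatic ductal adenocarcinoma. There were 6 Old tumor and 6 Young tumor libraries, from tumors harvested from old and from young mice, and all 12 carried the same line. The labels used here give no ages in weeks, strain, sex, treatment or site of implantation, and leave unsaid whether any pieces came from the same mouse. P-values therefore measure the spread between these pieces, which may be technical in part. A piece of tumor holds many cell types, so fewer cells of a type and less RNA per cell cannot be told apart.

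Regulatory T cells are CD4+ T cells that restrain other immune cells. Their identity depends on the transcription factor Foxp3, and they take up interleukin 2 through a receptor that contains the alpha chain CD25, the product of Il2ra. In tumors they often carry high levels of the costimulatory receptors GITR and OX40, and they can act through interleukin 10 and through latent TGF-beta held on the surface by GARP, the product of Lrrc32. None of these genes other than Foxp3 is closely restricted to regulatory T cells: activated T cells use Il2ra, Tnfrsf4 and Tnfrsf18, macrophages and B cells can make Il10, and endothelial cells and platelets use Lrrc32.

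Old tumor 6 was the shallowest library, at 17.75M counts, and Old tumor 5 the deepest, at 24.1M. The labels call the cell type epithelial, and the keratin genes Krt8 and Krt18 averaged 1711 and 1339 CPM (counts scaled to library size) in old tumors, against 1754 and 1559 CPM in young tumors. The 6 tumor epithelium markers summed to 4704 to 7401 CPM in old and 5070 to 9283 CPM in young tumors. T cell transcripts were sparse in every library. Cd3e, the epsilon chain of the T cell receptor complex, had 14 to 63 counts in an old library and 25 to 92 counts in a young library. Of the 16013 genes tested with edgeR's quasi-likelihood model, 362 (2.26%) had an adjusted p under 0.05: 127 (0.793%) were higher and 235 (1.47%) lower in old tumors. Higher genes made up 35.1% of these calls, and 85.8% of the calls on log2(TPM + 1), under which none of the 6 tested members changed sign. The number of calls ran from 2 without Old tumor 3 to 1106 without Old tumor 1, and leaving out any library other than Young tumor 3 (471) moved it by over 1.5 times.

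Tnfrsf4 and Tnfrsf18 lie side by side on chromosome 4, in the same orientation and 9551 bp apart, and Foxp3 defines the lineage, so the 250 bases upstream of the RefSeq start (GRCm38.p6) of these genes are shown. RefSeq promoter entries matched 4 of the 7 genes. Capitals mark a TATA box searched as TATAAA, a STAT site searched as TTCNNNGAA, an NFAT core searched as GGAAA, a Runx core searched as ACCACA or a forkhead core searched as GTAAACA, on either strand. NFAT and STAT factors act downstream of the T cell receptor and of interleukin 2. The window of Foxp3 (chrX:7579426-7579675, plus strand) is the upstream member of a pair of RefSeq starts, that of Tnfrsf4 is chr4:156013445-156013694 and that of Tnfrsf18 is chr4:156026072-156026321, both on the plus strand. The Foxp3 window lies inside the gene's span in GENCODE, and the Tnfrsf18 window runs past that gene's GENCODE start.
Foxp3: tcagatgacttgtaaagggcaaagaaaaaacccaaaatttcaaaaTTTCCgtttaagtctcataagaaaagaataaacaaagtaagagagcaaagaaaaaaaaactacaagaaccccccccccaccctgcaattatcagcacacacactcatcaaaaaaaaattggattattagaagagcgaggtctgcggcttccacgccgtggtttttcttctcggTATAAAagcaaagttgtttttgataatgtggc
Tnfrsf4: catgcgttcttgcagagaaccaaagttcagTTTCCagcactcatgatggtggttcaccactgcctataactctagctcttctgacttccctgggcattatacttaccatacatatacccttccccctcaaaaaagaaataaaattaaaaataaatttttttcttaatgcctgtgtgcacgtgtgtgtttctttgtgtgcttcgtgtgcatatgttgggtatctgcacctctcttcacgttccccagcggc
Tnfrsf18: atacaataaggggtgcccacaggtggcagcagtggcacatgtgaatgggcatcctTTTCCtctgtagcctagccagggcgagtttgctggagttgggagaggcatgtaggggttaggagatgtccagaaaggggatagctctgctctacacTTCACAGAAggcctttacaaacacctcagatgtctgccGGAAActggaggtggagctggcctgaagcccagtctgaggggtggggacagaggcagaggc
The Foxp3 window shown held 1 TATA box and 1 NFAT core. The window of the downstream Foxp3 start (chrX:7580233-7580482) held 1 NFAT core and 1 STAT site, which overlap, and no TATA box. The Tnfrsf4 window held 1 NFAT core, and the Tnfrsf18 window 2 NFAT cores and 1 STAT site. Over 32851 promoter windows of the same length, 12.4% held a TATA box, 55.6% an NFAT core and 7.0% a STAT site. A Runx core was present in 14.0% and a forkhead core in 3.2% of windows, and in none of these 4.

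The 7 genes did not share a direction between old and young tumors. Tnfrsf4, Foxp3 and Il2ra had lower means in old tumors, as Cd3e did, whereas Lrrc32, Tnfrsf18 and Il10 had higher means and Ikzf2 differed little. The low-count filter passed 6 of the 7, Il10 being the exception. With edgeR 0 of these 6 passed the adjusted threshold, and 3 had an unadjusted p under 0.05, against 21.1% of all tested genes. Of these 3, Tnfrsf18 and Lrrc32 were above 0 and Tnfrsf4 below 0; of all tested genes 10.7% were above and 10.4% below 0 at that p. DESeq2 called 0 of the 4 for which it gave an adjusted p (10.3% of the 13818 genes with one), and limma-voom with quality weights called 1, Tnfrsf4 (6.1% of all genes). The old and young libraries overlapped for each of the 7 genes, and 2.97% of tested genes had ages that did not overlap. The median log2 fold change of the 6 genes was −0.22, with 2 above 0 and 4 below 0, and that of all tested genes was 0.03.

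**Figure D1:**
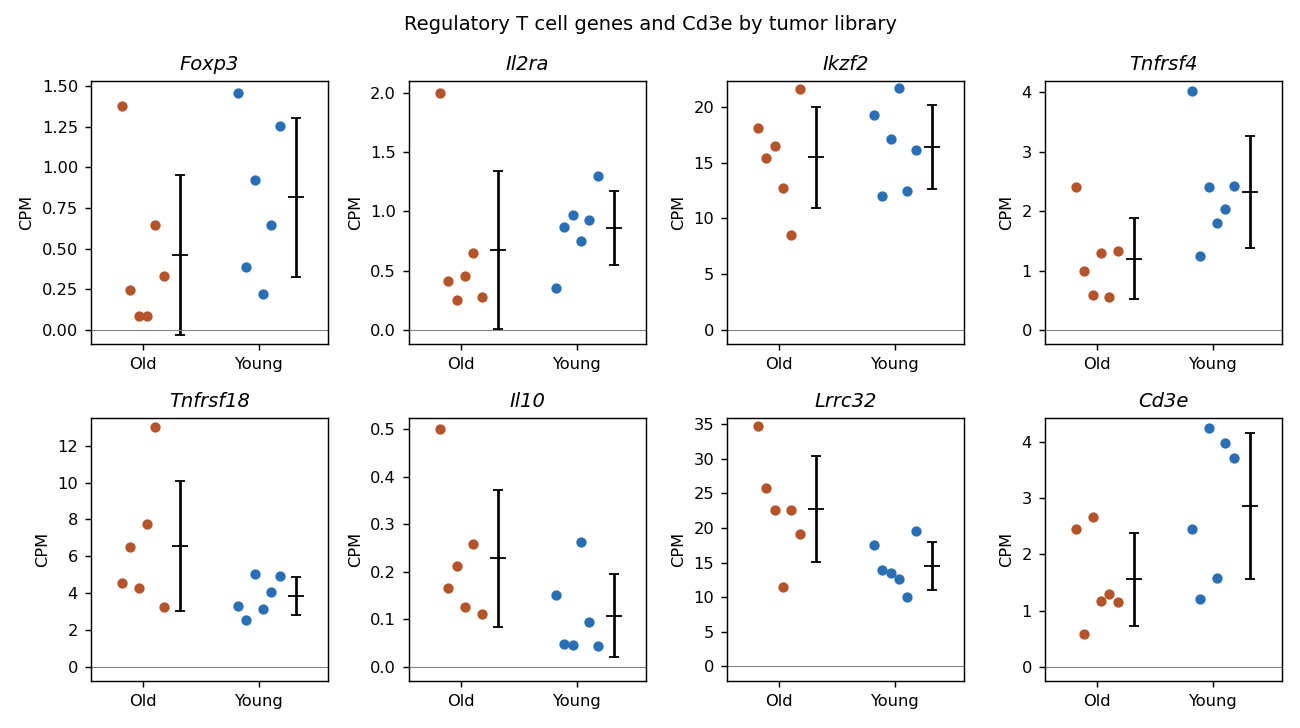
CPM of each regulatory T cell gene and of Cd3e in 6 Old tumor and 6 Young tumor libraries, with one point a library and the mean ± SD beside the points. The ages overlapped for every gene, and Old tumor 1 was the highest old library for Foxp3, Il2ra, Tnfrsf4, Il10 and Lrrc32.

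Foxp3 (ENSMUSG00000039521; chromosome X, 7573644 to 7595245, mm10) had few reads in every library. Its expected counts were 33.08, 5.98, 2.25, 2.34, 15.0 and 5.97 in Old tumors 1 to 6, against 28.77, 8.36, 19.8, 4.8, 14.22 and 29.2 in Young tumors 1 to 6. Old tumor 1 had the highest count of all libraries, and 4 of the other 5 old libraries held fewer than 6 counts. Foxp3 averaged 0.461 ± 0.493 CPM in old tumors and 0.815 ± 0.487 CPM in young tumors (SD, n = 6 each), with 5 of 6 old libraries below the young median. The log2 fold change of Foxp3, −0.80 with an SE of 0.63 (edgeR adjusted p = 0.492), did not pass, and was −1.56 without Old tumor 1 (edgeR adjusted p = 0.122). RSEM divides reads that match several genes, and the Foxp3 counts were fractional. Foxp3 shares 853 exonic bp on its own strand with Flicr, a noncoding gene with 1.04 to 20.6 counts a library, and 590 bp on the opposite strand with Ccdc22, at 637 to 940 counts.

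Ikzf2 (ENSMUSG00000025997; chromosome 1, 69531214 to 69687245) codes for Helios, a zinc finger factor found in many regulatory T cells and also in other cell types. Ikzf2 had a lowest, median and highest value of 8.46, 15.9 and 21.6 CPM in old tumors, against 11.99, 16.6 and 21.7 CPM in young tumors. The ranges nearly coincided, and Ikzf2 was at −0.09 (log2 fold change, SE 0.21; edgeR adjusted p = 0.842). Its sign turned without Old tumor 5, the lowest library (0.05), and without Young tumor 4, the highest (0.01). On the TPM scale, which accounts for transcript length, Ikzf2 averaged 2.88 ± 0.797 over the 12 libraries and Foxp3 0.283 ± 0.214 (SD).

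Il2ra (ENSMUSG00000026770; chromosome 2, 11642807 to 11693193) had 48, 10, 6, 11, 15 and 5 counts in Old tumors 1 to 6, against 7, 18, 21, 17, 20 and 30 counts in Young tumors 1 to 6. Old tumor 1 lay above every young library and the other 5 old libraries lay below 5 of the 6 young libraries. The means were 0.675 ± 0.664 CPM in old tumors and 0.860 ± 0.310 CPM in young tumors (SD, n = 6 each; −0.34 on the log2 scale, with an SE of 0.49 and an edgeR adjusted p = 0.727). With Old tumor 1 left out Il2ra was at −1.07 (edgeR adjusted p = 0.0869), which also did not pass.

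Tnfrsf4 (ENSMUSG00000029075; chromosome 4, 156013843 to 156016612) codes for OX40, a costimulatory receptor of activated and regulatory T cells. It had 58, 24, 14, 31, 13 and 24 counts in Old tumors 1 to 6, against 80, 26, 52, 41, 44 and 56 counts in Young tumors 1 to 6. Except for Old tumor 1, every old library lay below 5 of the 6 young libraries. Tnfrsf4 averaged 1.20 ± 0.681 CPM in old tumors and 2.32 ± 0.937 CPM in young tumors (SD, n = 6 each). Its fold change, a log2 value of −0.95 with an SE of 0.37 (edgeR adjusted p = 0.165), did not pass with all libraries. Tnfrsf4 did pass without Old tumor 1 (−1.29, edgeR adjusted p = 0.0413) and in limma-voom with quality weights (−1.15, adjusted p = 0.0459).

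Tnfrsf18 (ENSMUSG00000041954; chromosome 4, 156026164 to 156028895), the neighbour of Tnfrsf4, codes for GITR, a receptor of the same family. It had expected counts of 109, 158, 101, 186, 301 and 58.5 in Old tumors 1 to 6, against 65.6, 52.9, 109, 70.7, 88.4 and 114 in Young tumors 1 to 6. Old tumors 2, 4 and 5 lay above every young library, and Old tumor 6 lay below the young median. Tnfrsf18 averaged 6.56 ± 3.55 CPM in old tumors and 3.84 ± 1.02 CPM in young tumors (SD, n = 6 each; 0.77 on the log2 scale, with an SE of 0.31 and an edgeR adjusted p = 0.176), which did not pass. With Old tumor 5 left out it was at 0.47 (edgeR adjusted p = 0.320). Tnfrsf18 shares 414 exonic bp with the antisense gene Gm16008, at 11.6 to 58.7 counts a library, and whether its reads were counted by strand is unknown here. Gm16008 was also above 0, at 1.04 (log2 fold change, SE 0.27, edgeR adjusted p = 0.0587), and did not pass. Its part in the Tnfrsf18 counts was not tested.

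The neighbours Tnfrsf18 and Tnfrsf4 were set against each other after their levels had been seen, so the values are a description with no test. The log2 ratio of Tnfrsf18 to Tnfrsf4 was 2.38 ± 1.22 in old tumors and 0.75 ± 0.51 in young tumors (SD, n = 6 each), differing by 1.63. Old libraries ran from 0.89 to 4.33 and young libraries from −0.27 to 1.04, so the ages overlapped.

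Il10 (ENSMUSG00000016529; chromosome 1, 131019845 to 131024974), which codes for a cytokine that dampens inflammation, had very few reads. There were 12, 4, 5, 3, 6 and 2 counts in Old tumors 1 to 6, against 3, 1, 1, 6, 2 and 1 in Young tumors 1 to 6, or 32 counts in all old and 14 in all young libraries. Each old library lay above the young median of 0.070 CPM, and the ranges overlapped. Il10 was below the low-count filter, and in the fit without a filter it was at 1.05 (log2 fold change, SE 0.60; edgeR adjusted p = 0.421).

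Lrrc32 (ENSMUSG00000090958; chromosome 7, 98489283 to 98502181) had the highest mean TPM of the members over the 12 libraries, close to that of Tnfrsf18. It had 833, 623, 534, 275, 522 and 346 counts in Old tumors 1 to 6, against 350, 290, 293, 287, 217 and 453 in Young tumors 1 to 6. Old tumors 1, 2, 3 and 5 lay above every young library, and Old tumor 4 lay below the young median. Lrrc32 averaged 22.7 ± 7.64 CPM in old tumors and 14.6 ± 3.47 CPM in young tumors (SD, n = 6 each; 0.64 on the log2 scale, with an SE of 0.22 and an edgeR adjusted p = 0.126). It did not pass, and DESeq2 gave an adjusted p of 0.0521.

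**Figure D2:**
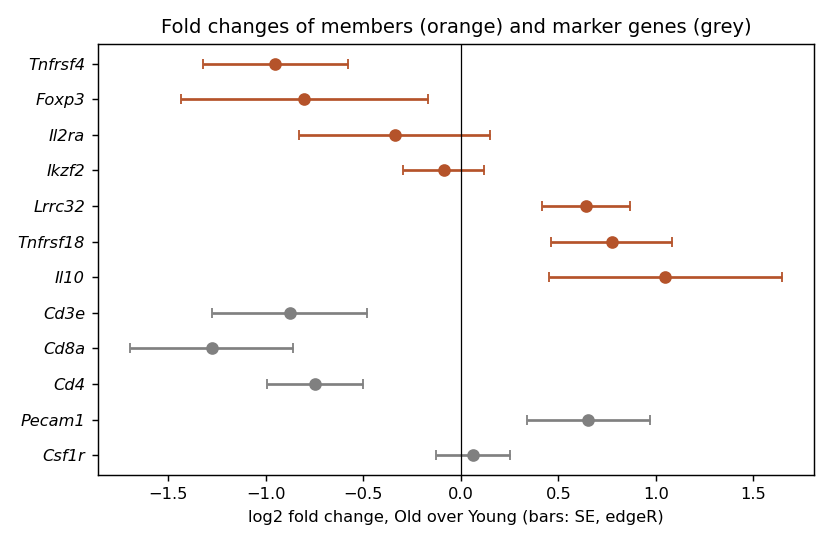
Log2 fold change, Old over Young, of the 7 regulatory T cell genes (orange) and of 5 marker genes (grey), with bars for the standard error from edgeR; Il10 is from the fit without a low-count filter. Tnfrsf4 (−0.95) and Foxp3 (−0.80) lay near Cd3e (−0.88), and Lrrc32 (0.64) lay near the endothelial gene Pecam1 (0.65).

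By mean TPM over all 12 libraries the levels fell into 3 tiers. Lrrc32 (8.04 ± 3.25) and Tnfrsf18 (7.98 ± 4.45) were on top and did not differ beyond their spread, Lrrc32 being the higher in 7 of 12 libraries. Tnfrsf4 (3.13 ± 1.49), Ikzf2 (2.88 ± 0.797) and Cd3e (2.55 ± 1.39) followed, with Tnfrsf4 above Ikzf2 and Ikzf2 above Cd3e in 7 of 12 libraries each. By age, Tnfrsf18 and Lrrc32 averaged 10.2 ± 5.47 and 10.1 ± 3.24 TPM in old tumors, against 5.79 ± 1.41 and 5.95 ± 1.485 TPM in young tumors. Tnfrsf4, Ikzf2 and Cd3e averaged 2.32 ± 1.225, 2.86 ± 0.876 and 1.90 ± 0.991 TPM in old tumors. In young tumors they averaged 3.94 ± 1.337, 2.90 ± 0.791 and 3.20 ± 1.492 TPM (SD, n = 6 each). Within each age the means ± SD of a tier overlapped, so no order within a tier is read from them. In young tumors those of Tnfrsf4 and Cd3e also overlapped those of Tnfrsf18 and Lrrc32, so the top tier was not separate there. In Young tumor 1 Tnfrsf4 (6.21 TPM) exceeded Tnfrsf18 (5.13 TPM). Il2ra (0.308 ± 0.184), Foxp3 (0.283 ± 0.214) and Il10 (0.218 ± 0.173) were lowest, and their order was not stable between libraries. Tnfrsf18 exceeded Tnfrsf4 in 11 of 12 libraries and Cd3e exceeded Il2ra in 12 of 12.

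Levels were next expressed relative to Cd3e, since T cell transcripts as a whole had lower means in old tumors. Cd3e averaged 1.56 ± 0.824 CPM in old tumors and 2.87 ± 1.303 CPM in young tumors (SD, n = 6 each; −0.88 on the log2 scale, with an SE of 0.40 and an edgeR adjusted p = 0.223), and 0 of 16 T cell marker genes passed with edgeR, 15 of them below 0 and 5 of these at an unadjusted p under 0.05. Among all tested genes 10.4% were below 0 at that p, and 2.26% passed in either direction. The T cell genes of smallest p were Cd8a at −1.28 (SE 0.42), Cd4 at −0.75 (SE 0.25) and Cd3d at −1.24 (SE 0.44), as log2 fold changes. With this lower denominator, the log2 ratio to Cd3e was higher in old tumors for 15827 of 16012 genes, with a median difference of 0.89. At an exact permutation p under 0.05, 27.6% of all genes were higher and 0.0687% lower relative to Cd3e in old tumors, and 0 passed adjustment over all genes by this test (smallest adjusted p = 0.164 by exact permutation).

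Relative to Cd3e, Foxp3, Tnfrsf4 and Il2ra had means that differed between the ages by less than the SD of either. The log2 ratio of Foxp3 to Cd3e was −1.85 ± 1.295 in old tumors and −1.78 ± 0.68 in young tumors (SD, n = 6 each), differing by −0.07 (exact permutation, two-sided, p = 0.903). Its sign turned without Young tumor 1 (0.14), Old tumor 3 (0.35) or Old tumor 4 (0.13), and against Cd8a it was 0.46. Old tumor 3 had the highest Cd3e of the old libraries (63 counts) with the lowest Foxp3 count (2.25), whereas Foxp3 CPM was 0.559, 0.429 and 0.5 of Cd3e CPM in Old tumors 1, 2 and 5. Young libraries ran from 0.139 to 0.592 of Cd3e CPM. With a smaller prior count of 0.5 the difference of the log2 ratio was −0.25 (exact permutation, two-sided, p = 0.742). For Tnfrsf4 the log2 ratio was −0.35 ± 1.003 in old tumors and −0.24 ± 0.64 in young tumors (SD, n = 6 each), differing by −0.12 (exact permutation, two-sided, p = 0.807). Its sign turned without Young tumor 1 (0.07), Old tumor 3 (0.22) or Old tumor 5 (0.03). The difference was 0.31 for Il2ra (exact permutation, two-sided, p = 0.550). Of all tested genes 0.9% had a smaller difference than Foxp3, 0.8% than Tnfrsf4 and 3.4% than Il2ra.

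Tnfrsf18, Lrrc32 and Il10 were higher relative to Cd3e in old tumors. Each old library exceeded the young median for these 3 genes, and also for Ikzf2. Cd3e itself lay below its young median CPM in 6 of 6 old libraries. Tnfrsf18, Lrrc32 and Il10, 3 of the 7 genes, had an exact permutation p under 0.05, against 27.6% of all genes. For Tnfrsf18 the log2 ratio was 2.02 ± 1.19 in old tumors and 0.51 ± 0.40 in young tumors (SD, n = 6 each), differing by 1.51 (exact permutation, two-sided, p = 0.013, adjusted p over all genes 0.164). Old tumors 2, 4, 5 and 6, at 11.3, 6.64, 10.03 and 2.81 times the CPM of Cd3e, lay above the highest young library, at 2.12 times. For Lrrc32 the log2 ratio was 3.88 ± 0.79 in old tumors and 2.42 ± 0.81 in young tumors (SD, n = 6 each), differing by 1.46 (exact permutation, two-sided, p = 0.00866, adjusted p over all genes 0.164). For Il10 the difference was 1.55 (exact permutation, two-sided, p = 0.0173), on 1 to 12 counts a library. Of all tested genes 96.7%, 95.7% and 97.2% had a smaller difference than Tnfrsf18, Lrrc32 and Il10. Ikzf2, which differed by 0.75 (exact permutation, two-sided, p = 0.141), lay under the median of all genes.

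**Figure D3:**
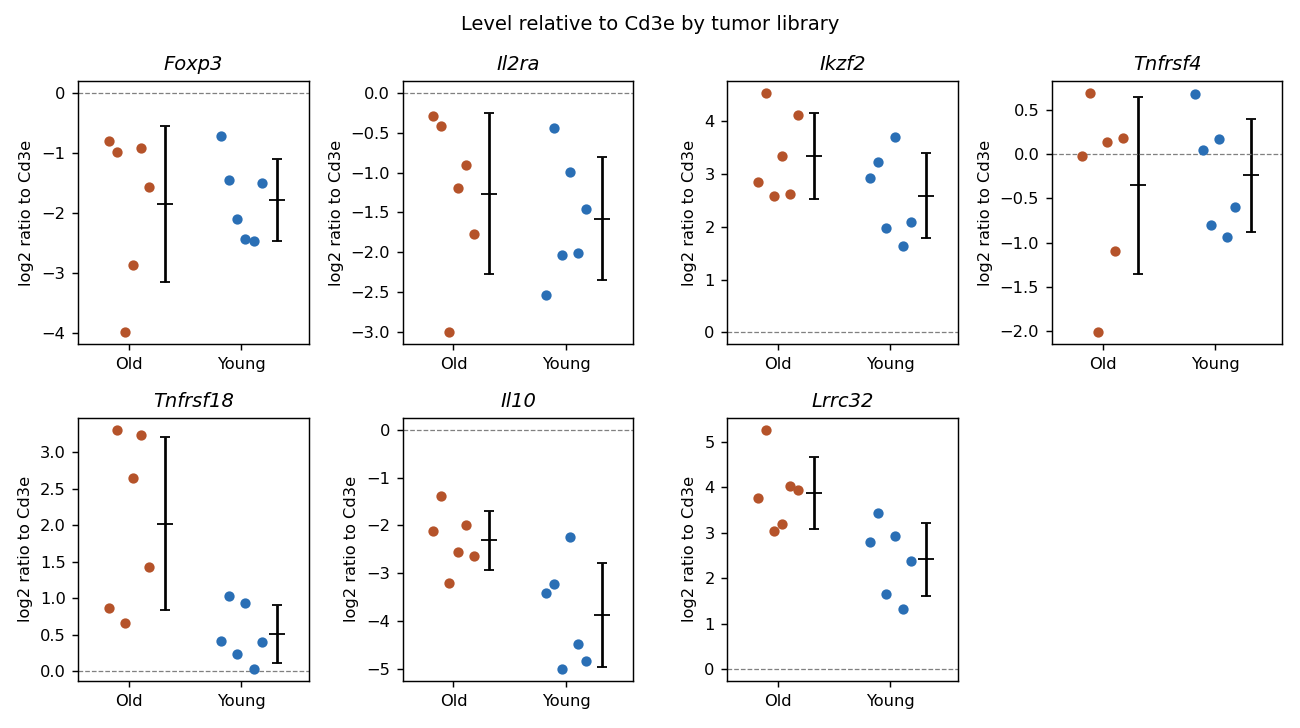
Log2 ratio of each gene's CPM to that of Cd3e in 6 Old tumor and 6 Young tumor libraries, with one point a library, the mean ± SD beside the points and a dashed line at equal levels. The difference of means was 1.51 for Tnfrsf18 and 1.46 for Lrrc32, and −0.07 for Foxp3, whose lowest old library was Old tumor 3.

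Each gene was also compared across libraries with Cd3e, with the endothelial gene Pecam1 and with the macrophage gene Csf1r, which made 21 relations on log2 CPM. After adjustment over the 21, 1 passed by Pearson's r: Lrrc32 with Pecam1 (r = 0.83, permutation p = 0.00053, adjusted p = 0.011 over 12 libraries). Spearman's rho was 0.74 (permutation p = 0.0077, adjusted p = 0.16), which did not pass. The adjustment covers only relations of these genes, which were chosen with earlier results known. The share of all genes with as high an r to Pecam1 is not given here, so the r is not read as particular to Lrrc32. The r of Lrrc32 with Pecam1 was 0.85 within old tumors (exact permutation p = 0.026, n = 6) and 0.81 within young tumors (exact permutation p = 0.053, n = 6), and 0.62 without the 2 libraries farthest from the median of Pecam1. Lrrc32 with Csf1r had an r of 0.75 (permutation p = 0.0048, adjusted p = 0.051) and a rho of 0.64 (permutation p = 0.028, adjusted p = 0.20), and r was 0.90 within old tumors, 0.89 within young tumors and 0.49 without the 2 libraries farthest from the median of Csf1r.

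Endothelial and fibroblast markers had higher means in old tumors, beside Lrrc32. All 8 endothelial markers were above 0 (median log2 fold change 0.65) and 0 passed with edgeR, 4 having an unadjusted p under 0.05. Among all tested genes 10.7% were above 0 at that p. The summed level of the endothelial markers ran from 98.1 to 402 CPM in old tumors and from 108 to 155 CPM in young tumors. Cdh5, the cadherin of endothelial junctions, was at 1.08 (SE 0.30, edgeR adjusted p = 0.0672), Vwf at 0.81 (SE 0.27) and Robo4 at 0.93 (SE 0.34). Fibroblast markers also had higher means: 6 of 6 were above 0 (median log2 fold change 0.67) and 0 passed with edgeR. An unadjusted p under 0.05 was seen for 2 of them, beside the same 10.7% of all tested genes. The summed level of the fibroblast markers ran from 1189 to 9282 CPM in old tumors and from 1349 to 3422 CPM in young tumors. Platelet markers summed to 10.2 to 23.2 CPM in old tumors and 9.20 to 14.3 CPM in young tumors. Set against Pecam1, a comparison chosen after its level was seen, the log2 ratio of Lrrc32 was −0.84 ± 0.48 in old tumors and −0.97 ± 0.20 in young tumors (SD, n = 6 each), differing by 0.13, given as a description with no test. The part of these cell types in the level of Lrrc32 was not tested.

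The 21 relations were also taken within each age (n = 6 each, unadjusted), and the one of smallest p in each age is named. Within young tumors it was Tnfrsf18 with Cd3e (r = 0.94, exact permutation p = 0.0083). Their r within old tumors, −0.32, was not told from 0 (exact permutation p = 0.53). Within old tumors it was Il10 with Csf1r (r = 0.94, exact permutation p = 0.0056), on few Il10 counts. Their r within young tumors was −0.29 (exact permutation p = 0.56). For Il10 and Csf1r over all 12 libraries r was 0.39 and rho 0.09 (permutation p = 0.21 and 0.78, adjusted p = 0.5 and 0.89). That r was −0.1 without the 2 libraries farthest from the median of Csf1r. Old tumor 1 was the highest library for both genes (12 counts of Il10 and 185 CPM of Csf1r). Whether the ages differ in either relation was not tested. Over all 12 libraries Tnfrsf18 and Cd3e had an r of −0.21 and a rho of −0.03 (permutation p = 0.53 and 0.94, adjusted p = 0.67 and 0.94). Foxp3 and Cd3e had an r of 0.53 and a rho of 0.52 (permutation p = 0.079 and 0.088, adjusted p = 0.26 and 0.31), and r was 0.47 without the 2 libraries farthest from the median of Cd3e. Within old tumors r was 0.19 and within young tumors 0.67 (exact permutation p = 0.70 and 0.16, n = 6 each). Foxp3 and Csf1r had an r of 0.69 and a rho of 0.67 (permutation p = 0.012 and 0.021, adjusted p = 0.084 and 0.20), which did not pass. That r was 0.88 within old tumors and 0.61 within young tumors (exact permutation p = 0.021 and 0.21, n = 6 each), and 0.49 without the 2 libraries farthest from the median of Csf1r.

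**Figure D4:**
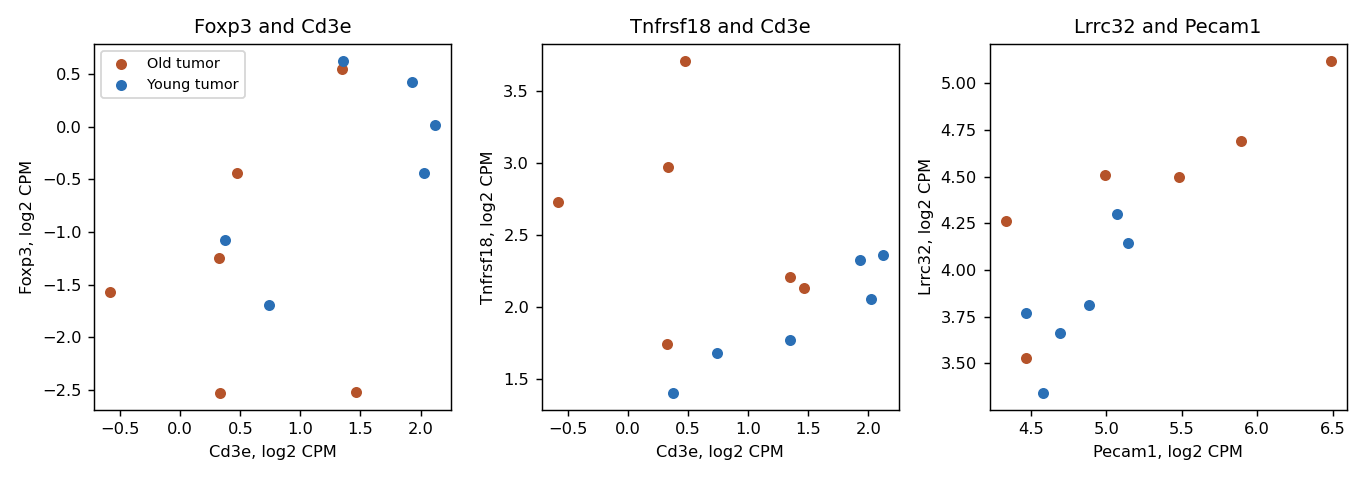
Log2 CPM of Foxp3 against Cd3e, Tnfrsf18 against Cd3e and Lrrc32 against Pecam1, with one point for each of 12 libraries. For Tnfrsf18 and Cd3e r was −0.32 in old and 0.94 in young libraries (exact permutation p = 0.53 and 0.0083, n = 6 each, unadjusted). Lrrc32 ran with Pecam1 over all libraries (r = 0.83).

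Other genes associated with regulatory T cells gave no call. Of 27 listed, 21 were tested and 0 passed with edgeR, with 15 below 0 and 6 above (median log2 fold change −0.12). At an unadjusted p under 0.05 there were 3 below and 1 above 0, against 10.4% and 10.7% of all tested genes. Itgae, the alpha E integrin CD103 that binds E-cadherin on epithelium, averaged 5.08 ± 2.31 CPM in old tumors and 10.2 ± 3.03 CPM in young tumors (SD, n = 6 each; −1.01 on the log2 scale, with an SE of 0.30 and an edgeR adjusted p = 0.0856). Socs2, a suppressor of cytokine signalling, was at −0.35 (SE 0.13, edgeR adjusted p = 0.154), and Nrp1, a semaphorin and VEGF co-receptor that is also abundant outside T cells, at 0.21 (SE 0.09, edgeR adjusted p = 0.192). The checkpoint receptor gene Ctla4 averaged 0.457 ± 0.616 CPM in old tumors and 0.911 ± 0.636 CPM in young tumors (SD, n = 6 each; −0.97 as a log2 fold change, with an SE of 0.66), and Ccr8, a chemokine receptor of tumor regulatory T cells, averaged 0.161 and 0.378 CPM in old and young tumors and was below the filter. Ctla4 and Ccr8, and Il2, Tnfsf4, Tnfsf18, Il2rb, Il2rg and Stat5b of the ligands and partners, are named outside the naming rule, after their values were seen.

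Ligands and signalling partners of the 7 genes gave no call either. Of 21 listed, 19 were tested and 0 passed with edgeR, with 10 above 0 and 9 below (median log2 fold change 0.02); 3 had an unadjusted p under 0.05, all above 0. Of all tested genes 10.7% were above 0 at that p. The 3 were the kinase genes Jak3 at 0.27 (SE 0.10, edgeR adjusted p = 0.152) and Jak1 at 0.18 (SE 0.07, edgeR adjusted p = 0.170), and the transcription factor gene Stat5a at 0.41 (SE 0.16, edgeR adjusted p = 0.158). Jak3, Jak1 and Stat5a averaged 107, 153 and 17.6 CPM in old and 89.0, 135 and 13.25 CPM in young tumors, far above Cd3e. Which cells carried these transcripts was not tested. The interleukin 2 receptor chains Il2rb and Il2rg were at −0.12 (SE 0.34) and −0.04 (SE 0.32), and Stat5b at 0.20 (SE 0.11). Il2 itself averaged 0.179 CPM in old and 0.167 CPM in young tumors, below the filter. Tnfsf18, the GITR ligand, averaged 0.386 CPM in old and 0.201 CPM in young tumors, also below the filter, and Tnfsf4, the OX40 ligand, was at 0.02 (SE 0.52, edgeR adjusted p = 0.989). Among 15 genes of conventional or resting T cells 11 were tested and 0 passed with edgeR, against 2.26% of all tested genes. Gata3, a factor of type 2 lymphocytes also used by other cells, was at −0.55 (SE 0.18, edgeR adjusted p = 0.110). Bach2, a repressor that keeps T cells in a resting state, was at 0.39 (SE 0.25).

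The genes whose pattern over the 12 libraries was most like each member were found among 12867 genes of at least 1 CPM, by Pearson's r of log2 CPM and as a description only. For Foxp3 they were Snx20 (r = 0.928), Susd3 (0.916) and Icos (0.914), and Icos is the inducible costimulator of T cells. Tnfrsf4 was most like Vti1b (0.910), Mrps28 (0.905) and Rhoh (0.904), and Il2ra most like Chpt1 (0.897), Adh1 (0.888) and Rgs10 (0.886). For Tnfrsf18 the likest were Acad11 (0.961), Mocs1 (0.958) and Gda (0.935), and for Ikzf2 Mcc (0.964), Nrp2 (0.940) and Wdfy1 (0.907). Lrrc32 was most like Dennd4a (0.955), Iffo1 (0.955) and Hdgfrp3 (0.949), and Il10 most like Tshz3 (0.879), Upk3b (0.877) and Map1a (0.866). No gene was among the 3 likest of more than 1 member.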

How the data were processed

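RNA of tumor pieces with an integrity number above 8 was poly(A)-selected and made into strand-specific libraries, per the labels' protocols. Reads were processed with cutadapt 2.3, STAR 2.7.0d (mm10) and RSEM 1.3.1, as the submitters' processing notes state; which annotation and strand setting they used is not given in the sources used here. Expected counts were deposited by the authors and rounded here to whole numbers; their deposited TPM were used for levels between genes and as an alternative. Coordinates came from GENCODE vM21 (GRCm38), promoter sequences from RefSeq.

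The test was edgeR 4.0.16 (R 4.3.3; TMM, filterByExpr, quasi-likelihood F test, Benjamini-Hochberg over 16013 genes, two-sided, adjusted p under 0.05). Fold changes are Old over Young. CPM uses TMM-scaled library sizes, log2 CPM a prior count of 2. Log2 ratios to Cd3e were compared by two-sided exact permutation over 924 splits (smallest p 0.00216), unadjusted, with an adjustment over the 7 genes set aside because they were chosen with results known. Permutation p of correlations over 12 libraries used 100000 resamples; those within an age were exact. Alternatives were scaling by RLE or by total counts, tests by DESeq2 1.42.0 or limma-voom (limma 3.58.1), other filters, TPM, a replicate block, a length correction (spline, 4 degrees of freedom), other denominators and each library left out. The edgeR fit was tested on simulated data, and the permutation test on small fixed sets of numbers with a known answer.

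Named genes are the 7 members, the 3 likest genes of each, and the 3 of smallest p in the pathway lists and in the T cell and endothelial marker lists; Krt8 and Krt18 are named to check the tissue label, other marker lists are given as sums, and 1 gene that the rule names is not reported here. Members and lists were chosen with earlier results of these data known. Every pair of libraries differed beyond sampling noise (chi-square per degree of freedom at least 15.5), so none was taken for a duplicate deposit; this does not show that pieces came from separate mice.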

Additional observations from a re-analysis of the deposited data

Results flagged for a closer look

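Of 30 sets of 6 libraries examined (CPM of 8 genes and ratios to Cd3e of 7, at each age), 1 held a library far from the others: Il2ra in Old tumor 1, at 1.998 CPM against 0.648 CPM in the next old library. The gap took 0.775 of the range, and chance flags about 1 set in 20. Old tumor 1 was also the highest old library for Foxp3, Tnfrsf4, Il10 and Lrrc32.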

How the results depend on the processing

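Fold changes of the 7 genes kept their direction and their side of the threshold in 139 of 143 settings, without DESeq2 for Foxp3 and Il2ra, which got no adjusted p; the exceptions are Tnfrsf4, called without Old tumor 1 and by limma-voom, and the sign of Ikzf2, which turned without Young tumor 4 (0.006) and without Old tumor 5 (0.046; range −0.205 to 0.046). Over all genes, 362 calls became 1425 with DESeq2, 977 with limma-voom, 151 with no filter, 109 with the length correction and 1 with the replicate block, and ran from 2 (without Old tumor 3) to 1106 (without Old tumor 1) with a library left out. Higher genes made up 35.1% of the calls, 51.5% with total counts, 85.8% with log2(TPM + 1) and 87.6% with log2(TPM + 0.1), under which the all-gene median came to 0.13 and 0.15. None of these scalings turned the direction of the 6 tested members. Relative to Cd3e, 119 of 133 settings kept direction and side. The difference for Foxp3 was 0.46 against Cd8a, 0.17 against summed Cd3d, Cd3e and Cd3g, −0.25 with a prior count of 0.5, 0.14 and 0.37 on TPM with pseudocounts of 0.1 and 1, and −0.28 to 0.35 with a library left out. That for Tnfrsf4 was 0.42 against Cd8a, 0.13 against the sum, and −0.33 to 0.22 with a library left out. Ikzf2 passed against Cd8a (1.28, exact permutation p = 0.0346). For these ratios the replicate block was a sign-flip test over same-numbered libraries, whose smallest p is 0.03125. Il10 did not pass with it (1.55, exact sign-flip p = 0.0625). The cause of these shifts was not tested. With each library left out the difference ran from 1.26 to 1.79 for Tnfrsf18, 1.18 to 1.67 for Lrrc32 and 1.33 to 1.88 for Il10, and Lrrc32 against Pecam1 ranged from −0.026 without Old tumor 6 to 0.233 without Old tumor 1. Same-numbered libraries correlated at −0.23 to 0.14, with 2 of 6 pairs over 0.1, so the numbers were not taken to pair them; 1 old and 2 young libraries correlated best with their own number. Foxp3 had 2.25 to 33.08 counts a library, which limits its precision.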

Other observations

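Among the 7 genes, as a description over 12 libraries on log2 CPM, over all libraries Foxp3 was most like Tnfrsf4 (r = 0.68; 0.46 within old and 0.80 within young tumors). Within old tumors Foxp3 had an r of 0.83 with Il2ra, 0.76 with Il10 and 0.72 with Lrrc32, and within young tumors −0.15, −0.43 and 0.60. Of all pairs of the 7 genes within either age, Ikzf2 and Tnfrsf18 had the r farthest from 0, and are named for that reason. Their r was −0.98 within old tumors (n = 6), 0.11 within young tumors and −0.64 over all 12 libraries, where rho was −0.43. Old tumor 5 had the lowest old Ikzf2 (8.46 CPM) and the highest Tnfrsf18 (13.0 CPM). Old tumor 6 had the highest old Ikzf2 (21.6 CPM) and the lowest old Tnfrsf18 (3.26 CPM). The difference between the ages was not tested, and the points share library depth.

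Marker lists of other cell types gave 0 calls with edgeR, against 2.26% of all tested genes, and the lists were short. The filter passed 7 of 7 macrophage, 6 of 7 dendritic cell and 2 of 7 B and plasma cell markers. It passed 3 of 6 natural killer cell markers and 5 of 6 markers of group 2 innate lymphoid and mast cells. Macrophage markers summed to 390 to 974 CPM in old and 435 to 708 CPM in young tumors, B and plasma cell markers to 2.93 to 95.5 CPM in old and 4.39 to 27.3 CPM in young tumors, and natural killer cell markers to 7.21 to 10.9 CPM in old and 8.95 to 11.7 CPM in young tumors. Dendritic cell markers summed to 117 to 283 CPM in old and 152 to 231 CPM in young tumors, and markers of group 2 innate lymphoid and mast cells to 12.9 to 29.4 CPM in old and 16.0 to 36.8 CPM in young tumors. Their part in the levels of Il10 and Tnfrsf18 was not tested.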
